A study of Drosophila melanogaster with 8 samples.

Results

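The glutathione S-transferase (GST) genes of the Drosophila midgut were examined by class. The members were all genes whose symbol is Gst followed by a class letter (D, E, O, S, T or Z) and a number, 35 of the 19299 features in the table. They comprised 11 genes of class D (delta), 14 of class E (epsilon), 3 of class O (omega), 1 of class S (sigma), 4 of class T (theta) and 2 of class Z (zeta). The midguts came from mated wild-type (WT) females aged 40 to 50 days, kept on cornmeal-agar food that contained either 10 µM quercetin (Que), a plant flavonol, or its solvent DMSO. Each group had 4 samples, and each sample was a pool of midguts from many flies. The comparison asks whether the transcripts of this detoxification family differ between old flies fed Que and old flies fed the solvent.

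GSTs join the tripeptide glutathione to reactive, electrophilic compounds, which makes these more soluble and easier to excrete. The delta and epsilon classes expanded in insects, where several members act on insecticides and plant toxins, while the omega, sigma, theta and zeta classes also exist in mammals. In flies, many of these genes respond to oxidative and chemical stress through the transcription factor CncC and its inhibitor Keap1, and the midgut is a main site of their expression.

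Expression was given as RPKM, the read number scaled to gene length in kilobases and to 1000000 gene-assigned reads, so levels of different genes can be set side by side per length. Sequencing depth ran from 27253832 to 35619139 gene-assigned reads in a sample. Markers of enterocytes, the absorptive cells of the midgut, summed to 11254 to 13693 RPKM in the DMSO samples and 13520 to 17474 RPKM in the Que samples over 7 genes. Of these 7 genes, 6 were higher in the mean with Que and nub was lower (53.4 RPKM with Que, 60.0 RPKM with DMSO). An unadjusted p under 0.05 was found for 1 of them (betaTry, a trypsin, higher with Que, limma adjusted p = 0.946). Among all genes tested, 3.62% had such a p. Markers of fat body summed to 38.4 to 79.3 RPKM and those of ovary to 1.64 to 5.21 RPKM over the 8 samples. Fewer cells of a type and less RNA per cell cannot be told apart in such bulk samples.

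Reads were found for all 35 genes, but GstD11 and GstE14 were close to absent. GstD11 had 0 to 4 reads per sample. GstE14, known as noppera-bo and required for ecdysteroid production in the steroid-making glands, had 0 to 2 reads per sample. Both had a mean under 0.1 RPKM and were not tested, which left 33 genes for the comparison.

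The 33 genes tested covered a wide range of levels, as the plot of RPKM by gene shows. GstE3 was the most abundant, with a mean of 204 RPKM over the 8 samples, and was followed by GstD1 at 156 RPKM and GstO3 at 127 RPKM. By their means, only these 3 of the 35 genes exceeded 100 RPKM, and they held 38.5% of the summed RPKM of the family. GstT4 (96.6 RPKM), GstE9 (96.1 RPKM), GstS1 (81.8 RPKM) and GstE12 (75.3 RPKM) came next and brought the cumulative share to 66.2%. Of all 35 genes, 21 had a mean of at least 10 RPKM and 6 were under 1 RPKM. The order of the leading genes was not fixed in every sample. GstE3 exceeded GstD1 in 7 of 8 samples, GstO3 exceeded GstT4 in 6, and GstT4 exceeded GstE9 in only 3, so the ranks of GstT4 and GstE9 were not separated. GstD1 exceeded GstO3 in 8 of 8 samples.

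**Figure D1:**
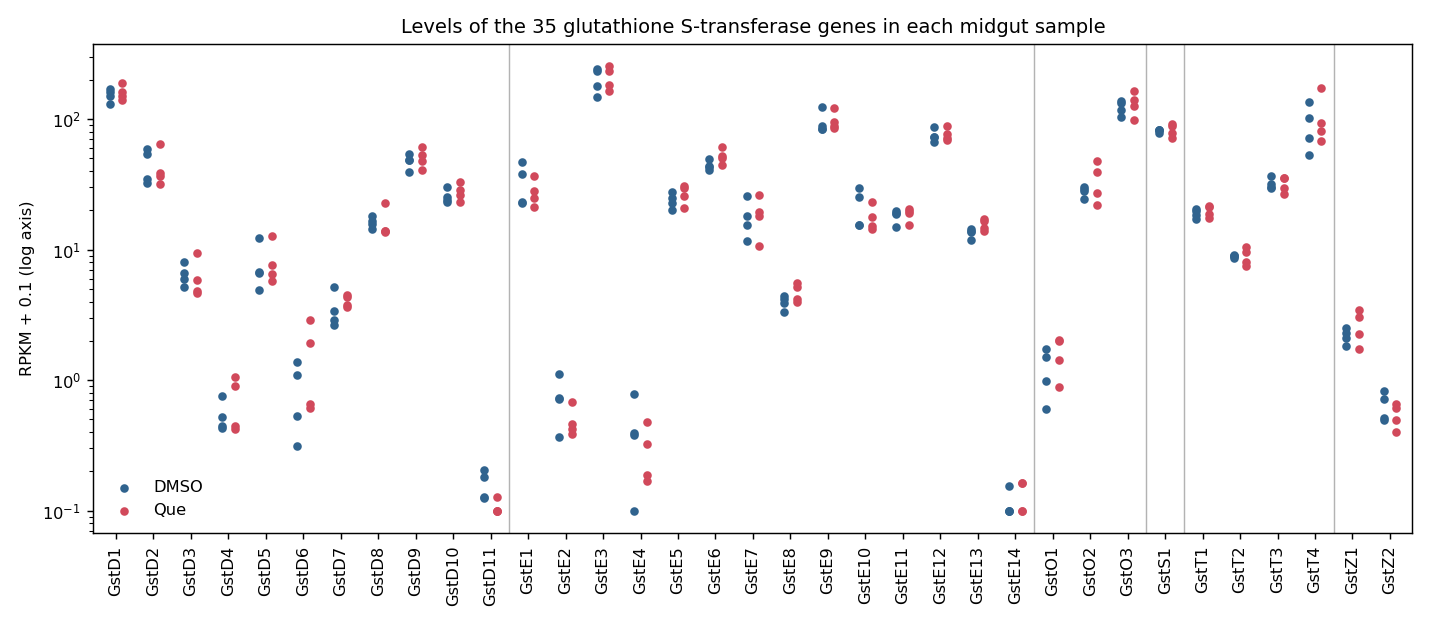
RPKM + 0.1 on a log axis for each of the 35 GST genes, ordered by class, with 1 point per sample (blue, 4 DMSO samples; red, 4 Que samples). The Que and DMSO points of every tested gene overlapped, and GstD11 and GstE14 lay at the lower end with 0 to 4 reads per sample.

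Class E held the largest part of the summed level, with 38.2% to 46.4% per sample, and class D followed with 22.1% to 29.1%. Class O had 10.4% to 16.3%, class T 9.15% to 15.8%, and class S, with GstS1 alone, 5.51% to 7.89%. The 2 genes of class Z together made up 0.171% to 0.295%. In each class with several genes, a single gene carried much of the sum. GstD1 gave 47.2% to 54.3% of class D, GstE3 gave 32.7% to 42.3% of class E, and GstO3 gave 76.8% to 84.5% of class O. GstT4 gave 44.7% to 75.5% of class T, and GstZ1 gave 76.5% to 88.1% of class Z.

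No GST gene passed the test between the Que and DMSO groups. With limma on log2(RPKM + 0.1), two-sided and with Benjamini-Hochberg adjustment over 13249 genes, 0 of 33 members had an adjusted p under 0.05, and their adjusted p values ran from 0.946 to 0.995. Among all genes tested, 0% of genes passed (smallest adjusted p = 0.0905). At an unadjusted p under 0.05, 0 of 33 members were higher and 0 were lower with Que, where 1.68% of all genes tested were higher and 1.93% were lower. The Que and DMSO values overlapped in all 33 genes, while among all genes tested 0.876% of genes had all 4 Que samples above all 4 DMSO samples and 1.26% had them all below. At these background rates a family of this size would hold few such genes, so counts of 0 do not set the members apart from the rest of the table. Leaving out DMSO 1 gave 3 members with an unadjusted p under 0.05 (GstD7 and GstE6 higher and GstE2 lower with Que, limma adjusted p = 0.925 each), and leaving out Que 2 gave 2 (GstE6 and GstE13, both higher). The same omissions raised the share of all genes at an unadjusted p under 0.05, from 3.62% with all samples to 4.48% without DMSO 1 and 9.02% without Que 2. The replicates are separate samples in the labels, but no source says whether they came from separate fly cohorts, so the p values measure only the spread between these samples.

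**Figure D2:**
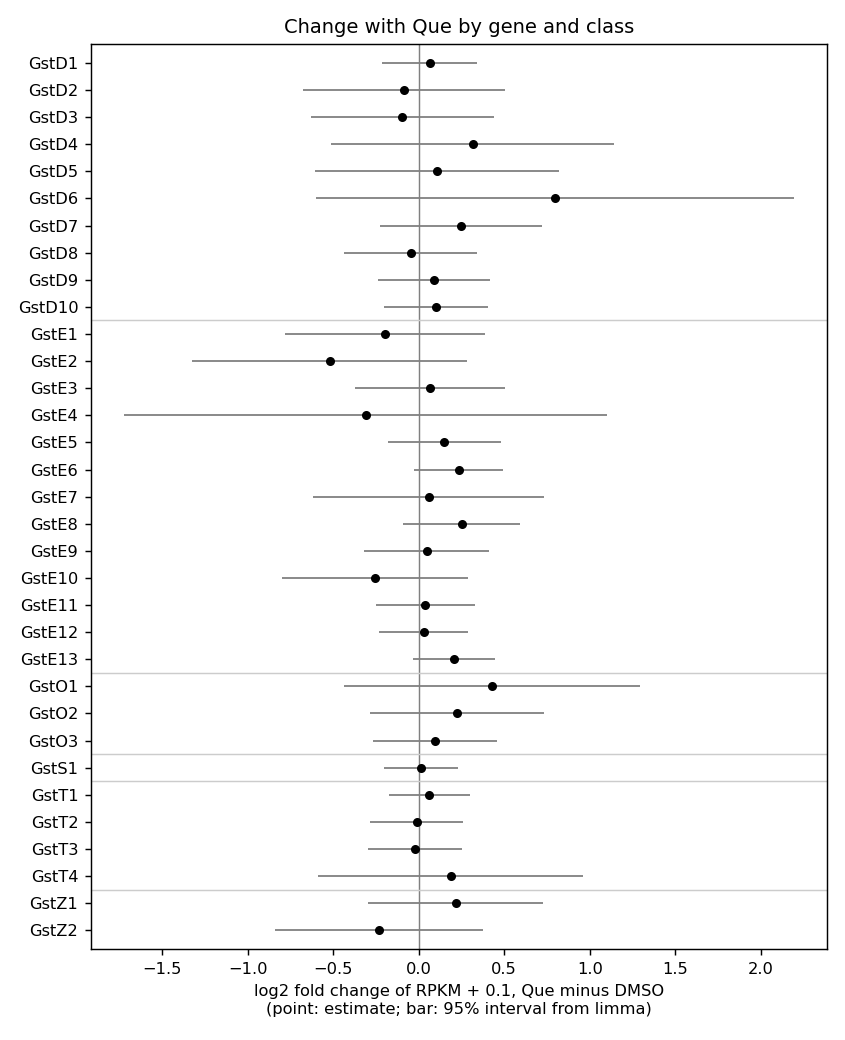
Log2 fold change of RPKM + 0.1, Que minus DMSO, for the 33 tested GST genes by class, with the limma estimate as a point and its 95% interval as a bar. All 33 intervals include 0, and those of GstD6 and GstE4, with few reads, are the widest.

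The sizes of change that the data allow differed between the genes. The 95% interval of 28 of the 33 genes lay within 0.5-fold to 2-fold, so for these a change of 2-fold in either direction lay outside the interval. The other 5 genes, GstD4, GstD6, GstE2, GstE4 and GstO1, had wider intervals that reached a 2-fold rise or a 0.5-fold level. All 5 were low, with means from 0.252 RPKM for GstE4 to 1.30 RPKM for GstO1. GstS1 had the narrowest interval, 0.869-fold to 1.17-fold.

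The estimates leaned slightly upward. A higher mean log2 value with Que was found for 23 of the 33 genes (69.7%), with a median log2 fold change of 0.06, against 47.0% and -0.016 over all 13249 genes. GST genes are short, at 725 to 2325 bases in the tested members, with a median of 876 bases. The 5715 tested genes in that length range had a median log2 fold change of 0.029, with 56.5% higher. After removal of each sample's trend on gene length, the members' median was 0.032 against 0.0029 for all genes. With that trend removed, 22 of the 33 members were still higher with Que. The part of gene length in the lean was not tested. By class, the median log2 fold change was 0.10 for D, 0.05 for E, 0.22 for O, 0.01 for S, 0.03 for T and -0.01 for Z. Leaving out 1 sample moved them from -0.0035 (DMSO 2) to 0.16 (DMSO 3) for D, from -0.052 (DMSO 2) to 0.15 (DMSO 1) for E, from 0.037 (Que 3) to 0.41 (Que 1) for O, from -0.036 (Que 1) to 0.081 (Que 4) for S, from -0.029 (Que 3) to 0.076 (Que 2) for T and from -0.13 (Que 3) to 0.15 (Que 2) for Z. Only the median of class O thus kept its sign under each omission. All 3 genes of class O were higher in the mean with Que, as were 7 of 10 tested genes of class D and 9 of 13 of class E. In classes T and Z, 2 of 4 and 1 of 2 genes were higher. None of these medians was tested, since the members are not replicates.

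**Figure D3:**
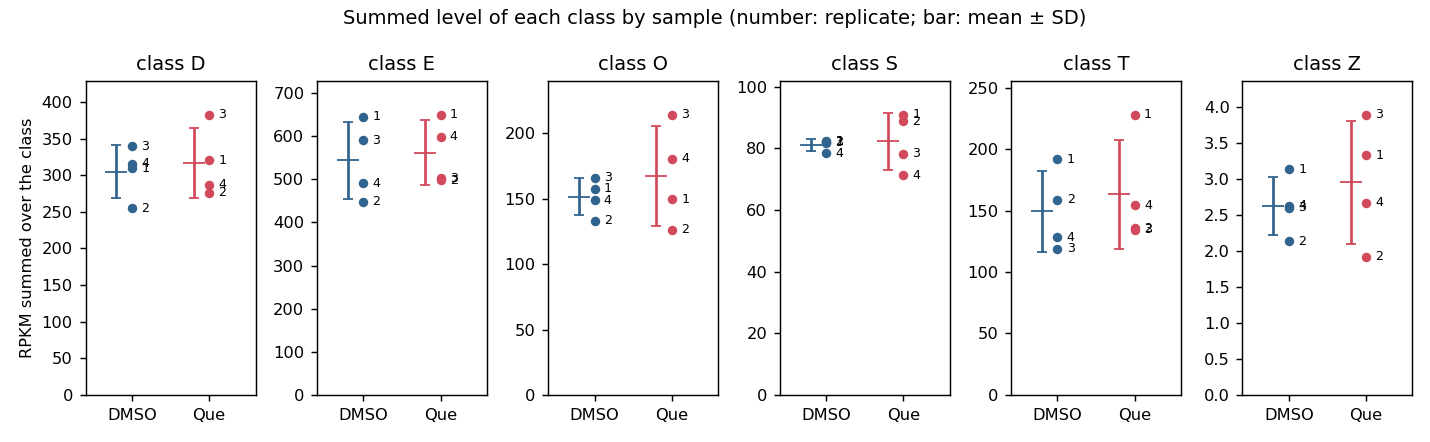
RPKM summed over the genes of each class (vertical axis from 0, separate scale per class) in each sample (points, numbered by replicate), with the mean ± SD of each group of 4 as a bar. The 2 groups overlap in every class, and DMSO 2 is the lowest DMSO sample in classes D, E, O and Z.

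The class D genes form a cluster on chromosome 3R. All 11 fall within 20.8 kb, from 12364776 to 12385624 (Release 6 plus ISO1 MT), with 3 other features between them. GstD1 (Dmel_CG10045, 12367817 to 12369268, minus strand, 2 exons), which acts on DDT and serves as a common readout of CncC activity, was measured separately by RT-qPCR in the study. By that assay the study reported it as elevated in midguts of aged flies fed Que. In the sequenced DMSO samples GstD1 stood at 168, 131, 160 and 150 RPKM for replicates 1 to 4, and in the Que samples at 160, 139, 190 and 149 RPKM. Que 3 was the highest of all 8 samples and DMSO 2 the lowest, and the other values of both groups were intermixed. Mean levels were 160 ± 21.9 RPKM (Que) and 152 ± 16.2 RPKM (DMSO, both as mean ± SD, n = 4). GstD1 thus had a log2 fold change of 0.06 with a standard error of 0.12, a 1.04-fold level with a 95% interval of 0.863-fold to 1.27-fold (limma adjusted p = 0.966, exact permutation test, p = 0.686). Without Que 3 the estimate was -0.02.

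Of the other class D genes, GstD2 and GstD9, both delta-class enzymes, were next in level with means of 43.8 and 49.1 RPKM. GstD2 was high in Que 3, DMSO 3 and DMSO 4, at 64.3, 54.2 and 58.6 RPKM, and between 31.5 and 38.4 RPKM in the other 5 samples. It thus split the samples across both groups, and its log2 fold change was -0.09. GstD3, next to GstD2 on the same strand, was also highest in Que 3 (9.35 RPKM) and DMSO 3 (7.95 RPKM). GstD6 was the most variable member, from 0.216 RPKM in DMSO 2 to 2.81 RPKM in Que 1, a 13.0-fold span that rested on 6 to 69 reads. Its log2 fold change of 0.80 was the largest of the family and had a 95% interval from -0.60 to 2.19, and it ran from 0.38 to 1.13 with 1 sample left out. The remaining genes had log2 fold changes of 0.32 (GstD4), 0.25 (GstD7), 0.11 (GstD5), 0.10 (GstD10), 0.09 (GstD9), -0.05 (GstD8) and -0.10 (GstD3).

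Levels changed sharply from gene to gene along the D cluster. In chromosome order they rose from GstD10 over GstD9 to GstD1 and fell again to GstD4, and both GstD5 and GstD8 were higher than their neighbours. GstD3 exceeded GstD4 11.8-fold in the mean. GstD8 exceeded GstD11, which lies 2520 bases further on, 479-fold in the mean, although GstD11 rested on 10 reads in all. The direction of each of the 10 steps between neighbours was the same in all 8 samples, as the plot along both clusters shows.

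**Figure D4:**
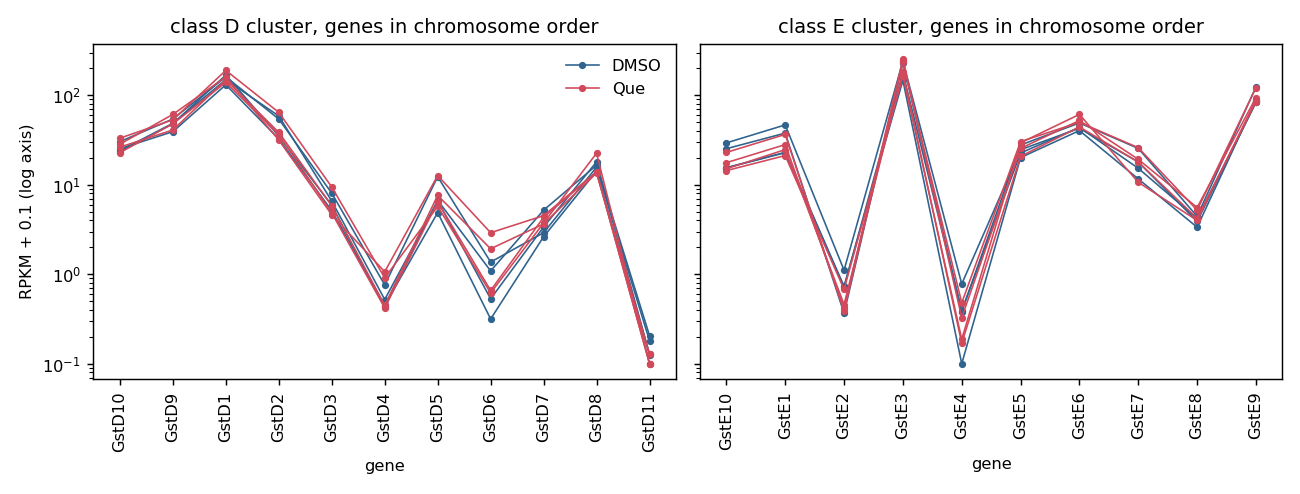
RPKM + 0.1 on a log axis for the 11 genes of the class D cluster (left) and the 10 genes of the class E cluster (right) in chromosome order, with 1 line per sample (blue, DMSO; red, Que). The lines of both groups follow the same course, with GstE3 high between the low GstE2 and GstE4.

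In class E, 10 of the 14 genes form a cluster on chromosome 2R. The cluster begins with GstE10, continues with GstE1 to GstE9 and spans 13.2 kb from 18396638 to 18409835, with 2 other features inside. The other 4 genes, GstE11 to GstE14, lie elsewhere on the same arm. GstE3 (Dmel_CG17524, 18400713 to 18401467, plus strand, 1 exon), an epsilon-class enzyme, had 231, 147, 241 and 179 RPKM in DMSO replicates 1 to 4 and 233, 181, 164 and 253 RPKM in Que replicates 1 to 4. Que 4 was the highest and DMSO 2 the lowest, and the groups were intermixed. Mean levels were 208 ± 42.0 RPKM (Que) and 199 ± 44.3 RPKM (DMSO, both as mean ± SD, n = 4), a 1.05-fold level with a 95% interval of 0.774-fold to 1.42-fold (limma adjusted p = 0.976, exact permutation test, p = 0.714). Without DMSO 2 the log2 fold change was -0.07 in place of 0.07.

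The neighbours of GstE3 were among the lowest genes of the family. GstE3 exceeded GstE2, which ends 337 bases before it, 400-fold in the mean and at least 233-fold in each sample. It exceeded GstE4, which begins 1780 bases after it, 809-fold in the mean. GstE2 had 8 to 30 reads per sample and GstE4 0 to 19. GstE2 had the largest estimated decrease of the family, with a log2 fold change of -0.52 and a 95% interval from -1.33 to 0.28. Its highest value was in DMSO 3 (1.01 RPKM) and its lowest in DMSO 1 (0.267 RPKM), so that the Que samples, at 0.286 to 0.577 RPKM, lay inside the range of the DMSO samples.

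GstE6 (18406011 to 18406761) had the smallest p of the family. It stood at 49.0, 40.2, 42.7 and 43.7 RPKM in DMSO replicates 1 to 4 and at 49.8, 44.2, 61.1 and 52.2 RPKM in Que replicates 1 to 4. Que 1, Que 3 and Que 4 were above all DMSO values, and Que 2 lay below DMSO 1. The log2 fold change was 0.23 (standard error 0.11), a 1.17-fold level with a 95% interval of 0.982-fold to 1.41-fold (limma p = 0.0731, adjusted p = 0.946, exact permutation test, p = 0.0571). The smallest p that 70 arrangements allow is 0.0286.

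GstE13, on chromosome 2R from 9122125 to 9123309 and thus far from the cluster, showed a similar picture. It had 14.1, 11.7, 13.8 and 13.5 RPKM in DMSO replicates 1 to 4 and 16.96, 13.7, 16.3 and 14.6 RPKM in Que replicates 1 to 4. Again 3 of the 4 Que samples lay above all DMSO samples and Que 2 did not. The log2 fold change was 0.21 with a 95% interval of 0.977-fold to 1.36-fold (limma p = 0.0831, adjusted p = 0.946, exact permutation test, p = 0.0857). Without Que 2, GstE6 (log2 fold change 0.31) and GstE13 (0.26) both had an unadjusted limma p under 0.05, with a limma adjusted p of 0.539 each, as did 9.02% of all genes tested. GstE8 came next, with values from 3.25 to 5.47 RPKM and a log2 fold change of 0.25 (limma adjusted p = 0.946).

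GstE1 and GstE10, which sit head to head at the start of the cluster on opposite strands, moved together from sample to sample. GstE1 was at 46.6 RPKM in DMSO 3, 37.7 in DMSO 1 and 36.4 in Que 1, and between 21.1 and 28.0 RPKM in the other 5 samples. GstE10 was highest in the same 3 samples, at 29.3, 25.2 and 22.9 RPKM, and between 14.3 and 17.5 RPKM in the others. The ratio of GstE1 to GstE10 stayed between 1.48 and 1.64 in the 8 samples, while each gene spanned about 2-fold (2.21-fold and 2.05-fold). Their log2 fold changes were -0.20 and -0.25, and with 1 sample left out they ran from -0.34 to -0.00030 for GstE1 and from -0.39 to -0.081 for GstE10. Exons of the pair share 20 bases on opposite strands, and since the strand setting of the counting is not given in the sources used here, the part of shared reads in this likeness was not tested.

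Other class E genes overlapped widely between groups. GstE9, at the end of the cluster, was high in DMSO 1 and Que 1 (124 and 122 RPKM) and between 83.0 and 94.3 RPKM in the other 6 samples. GstE12 ranged from 66.0 to 87.7 RPKM and GstE11 from 14.8 to 20.5 RPKM, with log2 fold changes of 0.03 and 0.04. GstE7 was more variable, from 10.6 RPKM in Que 3 to 25.9 RPKM in Que 1, so both ends of its range lay in the Que group. The log2 fold changes of GstE5, GstE7, GstE9 and GstE4 were 0.15, 0.06, 0.05 and -0.31. GstE9 shares 40 exonic bases with imd on the opposite strand, GstE12 shares 33 with CG3894 and GstE13 shares 6 with CG18659, and their values are uncertain to that extent.

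The omega-class genes lie side by side on chromosome 3L. Omega enzymes carry a cysteine at the active site and act as thiol transferases. GstO3 (Dmel_CG6776, 8518885 to 8520295, plus strand, 2 exons) had 132, 104, 136 and 117 RPKM in DMSO replicates 1 to 4 and 126, 98.4, 165 and 140 RPKM in Que replicates 1 to 4. The Que group held both the highest sample, Que 3, and the lowest, Que 2. The Que mean was 132 ± 27.6 RPKM and the DMSO mean 122 ± 14.6 RPKM (SD, n = 4 each), and GstO3 thus had a log2 fold change of 0.09 (standard error 0.16, limma adjusted p = 0.962, exact permutation test, p = 0.629). Without Que 3 it was -0.02.

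GstO2 had 21.9 to 47.9 RPKM in the Que samples and 24.3 to 30.2 RPKM in the DMSO samples. Que 3 and Que 4 lay above all DMSO samples and Que 1 lay below them, with a log2 fold change of 0.22 that was 0.04 without Que 3 and 0.41 without Que 1. GstO1 was low, at 0.502 to 1.92 RPKM and 16 to 58 reads, with a log2 fold change of 0.43 and a 95% interval from -0.44 to 1.29. GstO2 shares 61 exonic bases with sepia (se), the omega-class gene that makes a precursor of the red eye pigment, which had 16 to 58 reads itself.

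GstS1 (Dmel_CG8938, chromosome 2R, 17093246 to 17099501, minus strand, 8 exons), the only sigma-class gene, encodes an enzyme that is abundant in flight muscle and conjugates a product of lipid peroxidation. It had 82.3, 82.2, 81.8 and 78.4 RPKM in DMSO replicates 1 to 4 and 91.0, 88.8, 78.3 and 71.4 RPKM in Que replicates 1 to 4. Que 1 and Que 2 lay above all DMSO samples and Que 3 and Que 4 lay below them. Mean levels were 82.4 ± 9.20 RPKM (Que) and 81.2 ± 1.87 RPKM (DMSO, both as mean ± SD, n = 4), a 1.01-fold level (log2 fold change 0.01, standard error 0.10, limma adjusted p = 0.987, exact permutation test, p = 0.914). Markers of visceral muscle summed to 1028 to 1761 RPKM in the Que samples and 960 to 1367 RPKM in the DMSO samples over 9 genes, and their part in the level of GstS1 was not tested.

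Among the theta-class genes, GstT4 (Dmel_CG1681, chromosome X, 13404749 to 13409323, plus strand, 4 exons) had the widest span of the genes above 10 RPKM. It had 134, 102, 53.2 and 70.8 RPKM in DMSO replicates 1 to 4 and 172, 80.4, 67.6 and 92.3 RPKM in Que replicates 1 to 4. In both groups replicate 1 was the highest and replicate 3 the lowest, and the span from DMSO 3 to Que 1 was 3.24-fold. Mean levels were 103 ± 47.2 RPKM (Que) and 90.01 ± 35.8 RPKM (DMSO, both as mean ± SD, n = 4), a 1.14-fold level with a 95% interval of 0.666-fold to 1.94-fold (limma adjusted p = 0.964, exact permutation test, p = 0.657). Without Que 1 the log2 fold change was -0.09 in place of 0.19.

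The other theta-class genes were far steadier. GstT1 ranged from 16.98 to 21.3 RPKM, GstT2 from 7.42 to 10.3 RPKM and GstT3 from 26.6 to 36.6 RPKM, with log2 fold changes of 0.06, -0.01 and -0.02. In the DMSO group GstT2 kept within 8.54 to 8.96 RPKM, and the Que samples lay on both sides of that range. GstT2 shares 223 exonic bases with CG12926 on the opposite strand, which had 784 to 1143 reads per sample against 221 to 279 for GstT2, so its level is uncertain.

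The zeta-class genes GstZ1 and GstZ2 are neighbours on chromosome 3R. Their mammalian relative is maleylacetoacetate isomerase, an enzyme of tyrosine breakdown. GstZ1 (Dmel_CG9362, 9455517 to 9456546, minus strand, 3 exons) had 2.40, 1.72, 2.20 and 2.01 RPKM in DMSO replicates 1 to 4 and 2.93, 1.62, 3.34 and 2.15 RPKM in Que replicates 1 to 4, from 51 to 84 reads. Que 1 and Que 3 were above all DMSO samples and Que 2 was below them. The Que mean was 2.51 ± 0.769 RPKM and the DMSO mean 2.08 ± 0.290 RPKM (SD, n = 4 each), so GstZ1 was 0.22 higher on the log2 scale in the mean (standard error 0.23, limma adjusted p = 0.946, exact permutation test, p = 0.429). GstZ2 ranged from 0.299 to 0.727 RPKM, with a log2 fold change of -0.23.

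The SD within groups on the log2 scale had a median of 0.31 over the 33 genes, against 0.27 over all genes tested. Over the 29 members with a mean of at least 1 RPKM it was 0.26, against 0.22 for all genes at that level. GstD6 (1.05) and GstE4 (1.01) were the most variable. GstS1 (0.12), GstT1 (0.13) and GstE13 (0.13) were the steadiest.

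Many genes deviated together in the same samples, as the heat map of deviations shows. In Que 1, 25 of 33 members were above their own mean over the 8 samples, and in DMSO 1, Que 3, DMSO 3 and Que 4 these were 22, 21, 20 and 17. In DMSO 4 they were 10, in DMSO 2 they were 5 and in Que 2 they were 4. Replicate 2 of either group was thus low for most of the family. DMSO 2 was the lowest of the 8 samples for 13 members and Que 2 for 6. Among the 5715 tested genes in the members' length range, 35.6% were above their mean in DMSO 2 and 36.7% in Que 2. A smaller lean in the same direction was thus present in that range, and its part was not tested. The members, with a median of 876 bases, lie toward the short end of the range. In the class E cluster, 9 of 10 genes were above their mean in both Que 1 and DMSO 1, and 1 of 10 in both Que 2 and DMSO 2. In class D, 8 of 10 genes were above it in Que 3 and in DMSO 3, and 0 in DMSO 2. The whole family summed to 1079 to 1389 RPKM in the DMSO samples and 1126 to 1442 RPKM in the Que samples, with the lowest sum of each group in replicate 2 and the highest in replicate 1.

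**Figure D5:**
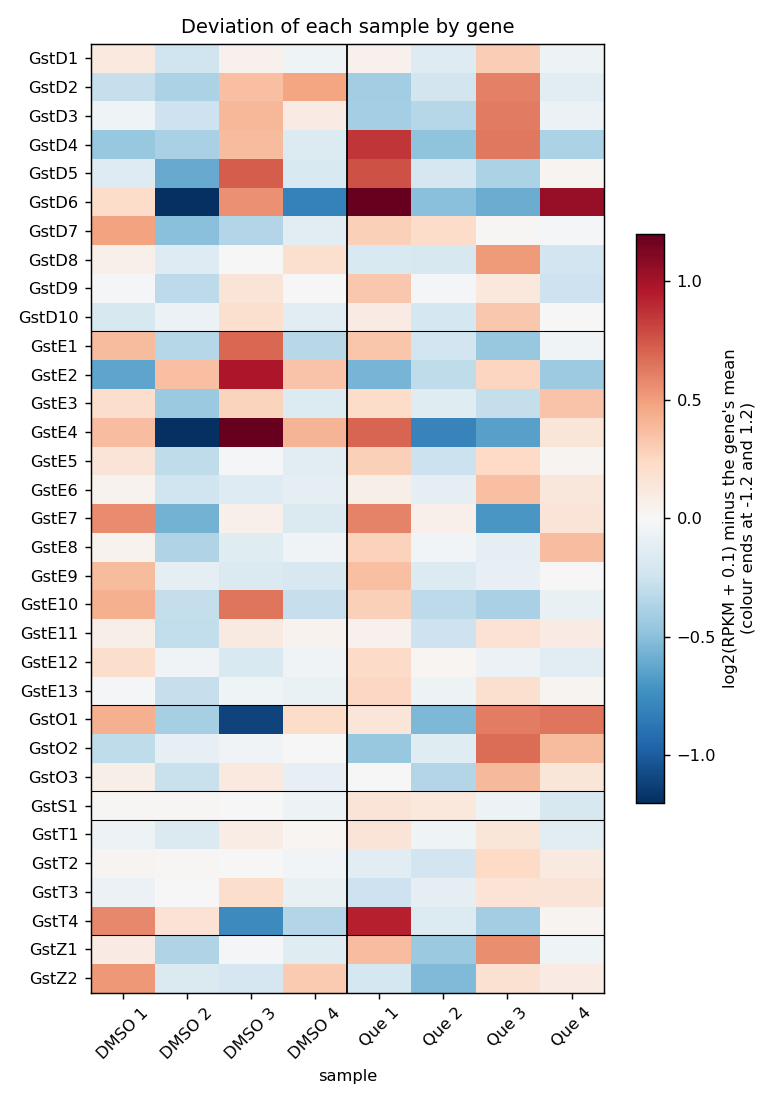
Deviation of log2(RPKM + 0.1) from the gene's mean over the 8 samples, for 33 GST genes (rows, by class) in 4 DMSO and 4 Que samples (columns), red above and blue below the mean. The columns of DMSO 2 and Que 2 are blue for 28 and 29 of the 33 genes.

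None of the 12 tested genes around the GSTs in the same pathway passed the test. The glutathione pathway list held 14 genes for glutathione synthesis, breakdown and use, of which 12 were tested, with 0 at an unadjusted p under 0.05, 6 higher with Que and a median log2 fold change of -0.03. Gclm, the modifier subunit of the rate-limiting enzyme of glutathione synthesis, had means of 504 RPKM with Que and 492 RPKM with DMSO. Its catalytic partner Gclc had 137 and 144 RPKM. Trxr-1, the thioredoxin reductase that also recycles glutathione in flies, had 90.1 to 106 RPKM with Que and 74.8 to 89.97 RPKM with DMSO. The lowest Que value thus exceeded the highest DMSO value by a narrow margin, and the groups did not overlap. This held for no other of the 12 genes, and for 2.14% of all genes tested. The log2 fold change of Trxr-1 was 0.17 and it did not pass the test (limma adjusted p = 0.946). Trxr-2, with 0 to 2 reads per sample, was not tested, and Grx1t was not analysed here.

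The 3 regulators likewise did not pass the test. The gene cnc, which encodes CncC, had means of 38.7 RPKM (Que) and 43.6 RPKM (DMSO) (log2 fold change -0.21), Keap1 had 5.62 and 5.30 RPKM (0.09), and maf-S, the small partner of CncC, had 576 and 516 RPKM (0.14). Of the 5 genes of tyrosine breakdown, the pathway of the zeta class, 3 were tested. Hn and Hpd had log2 fold changes of 0.13 and -0.44, and 1 gene had an unadjusted p under 0.05, against 3.62% of all genes tested. This was Faa, the enzyme of the last step, at 0.258 to 0.846 RPKM with Que and 0.126 to 0.395 RPKM with DMSO (log2 fold change 1.05, limma adjusted p = 0.946). It rested on 6 to 38 reads per sample, and its groups overlapped.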

How the data were processed

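RNA from midguts was sequenced in 8 samples, 4 per group, grouped by the sample labels. The authors trimmed the reads (Trimmomatic 0.36), collapsed duplicates into consensus sequences, aligned them to the ISO1 genome (STAR 2.5.3a), counted them with featureCounts and deposited RPKM values. The strand setting and the treatment of reads with several alignments are not given in the sources used here, so near-identical genes of a cluster may share reads. In every sample, RPKM times kilobases added up to 1000000, and whole reads (within 0.01) were obtained for 100% of values. A level of 3 reads, a limit for counting error only, equals 0.0842 to 0.110 reads per 1000000.

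Values were analysed as log2(RPKM + 0.1), which understates changes of low genes, for the 13249 genes averaging 0.1 RPKM or more, using limma 3.58.1 in R 4.3.3 with an intensity trend and Benjamini-Hochberg adjustment. The code was tested on simulated data. Exact two-sided permutation tests and figures used SciPy 1.17.1, matplotlib 3.10.9, pandas 2.3.3 and NumPy 2.4.6 in Python 3.11.15. Members, gene lists and tests were chosen with earlier results of these data known. Values of all samples were given for GstD1, the most abundant gene of each class and any member with an unadjusted p under 0.05 or groups apart. GstE6 and GstE13 were named after their values were seen, as were the sample patterns and the levels of neighbouring genes. Positions are those of the deposited table, and all 35 members had the same start and end in the RefSeq gene table of Release 6 plus ISO1 MT. Alternatives were pseudocounts of 1 and 0.01, a mean of at least 1 RPKM or no filter, median-of-ratios scaling, weights per array, a replicate block, voom on the recovered reads, removal of the trend on gene length (loess, span 0.5) and each sample left out.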

Additional observations from a re-analysis of the deposited data

Results flagged for a closer look

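In 5 of 80 groups of 4 values, 1 sample stood apart from the other 3 by more than Dixon's 95% critical value, a share of the range of the group, where chance would give about 4. GstD8 in Que 3, at 22.4 RPKM against 13.4 to 13.9 RPKM in the other Que samples, stood apart by 0.953 of the range. GstE9 in DMSO 1 had 124 RPKM against 83.0 to 88.0 RPKM (0.878), and GstS1 in DMSO 4 had 78.4 RPKM against 81.8 to 82.3 RPKM (0.880), a gap that is small beside the level. GstD11 in Que and GstE14 in DMSO each had reads in a single sample of the group, at 0.0282 RPKM and 0.0557 RPKM, and were listed at 0 in the other 3. Their share of 1 each is fixed by these values at 0, so the number given by chance does not apply to them.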

How the results depend on the processing

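No member had an adjusted p under 0.05 under any of the 17 alternatives (smallest 0.434, with array weights). Members with an unadjusted p under 0.05 numbered 1 with no filter on low values (GstD11, with 10 reads in all), 3 with array weights (GstE2, GstE6 and GstE8), 1 with the length trend removed (GstE6) and 0 to 3 with a sample left out (GstE2, GstE6 and GstD7 without DMSO 1). In those fits 3.27%, 10.6% and 3.90% of all genes tested had such a p, and 4.48% did without DMSO 1. Members whose groups did not overlap numbered 2 with the length trend removed (GstE6 and GstE13) and 0 to 3 with a sample left out (GstD7, GstE2 and GstE6 without DMSO 1, GstE6 and GstE13 without Que 2, GstD8 without Que 3). Over all genes tested the groups did not overlap in 2.45% with the length trend removed, 5.35% without DMSO 1, 9.42% without Que 2 and 3.84% without Que 3, against 2.14% with all samples. In the whole table, genes with an adjusted p under 0.05 numbered 2 with no filter, 2 with array weights and 0 to 3 with a sample left out, the 3 without DMSO 3. Voom on the recovered reads gave 0, with 450 at an unadjusted p under 0.05, against 479 with limma on log2 values, 315 with a minimum mean of 1 RPKM, 1401 with array weights and 361 to 1195 with a sample left out.

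The replicate numbers were not taken as pairs, since no source says what a number stands for. The deviations of same-numbered samples correlated at 0.49, 0.28, 0.07 and 0.01 over 9154 genes, all above 0. Those of different-numbered samples ran from -0.38 (Que 3 with DMSO 1) to 0.30 (Que 3 with DMSO 4). These values do not decide whether the numbers mark pairs. With a replicate block, 2 members (GstE6 and GstE13) and 1117 genes (8.43%) had an unadjusted p under 0.05 and 0 had an adjusted p under 0.05.

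Of 557 pairs of a member and an alternative, 509 kept their direction and 48 did not, in 19 members, 10 of these only with a sample left out. The log2 fold change with array weights was -0.040 for GstD4, -0.069 for GstD9, -0.013 for GstE12, -0.077 for GstS1, -0.039 for GstT1, 0.040 for GstT2 and 0.057 for GstT3. It was 0.056 for GstE4 with a pseudocount of 0.01, -0.00091 for GstE11 with the length trend removed and 0.00051 for GstT2 with median-of-ratios scaling. With a sample left out it ran from -0.023 to 0.13 for GstD1, -0.30 to 0.057 for GstD2, -0.32 to 0.024 for GstD3, -0.13 to 0.37 for GstD5, -0.22 to 0.021 for GstD8, -0.0044 to 0.19 for GstD9, -0.070 to 0.17 for GstE3, -0.88 to 0.11 for GstE4, -0.13 to 0.30 for GstE7, -0.067 to 0.18 for GstE9, -0.052 to 0.13 for GstE11, -0.043 to 0.10 for GstE12, -0.020 to 0.23 for GstO3, -0.036 to 0.081 for GstS1, -0.093 to 0.064 for GstT2, -0.080 to 0.057 for GstT3 and -0.092 to 0.41 for GstT4. The class medians moved by less than 1 SD between samples of a group. With a sample left out, those of D, E, S, T and Z changed sign. The processing also changed the sign for D and S (array weights, -0.0086 and -0.077) and T (length trend removed, -0.015). For Z the median was positive with a pseudocount of 1, median-of-ratios scaling, array weights and a mean of at least 1 RPKM. In the last it was 0.22, but that filter removed GstZ2, so the value is that of GstZ1 alone. All 5 genes with intervals past 0.5-fold or 2-fold (GstD4, GstD6, GstE2, GstE4 and GstO1) had at most 69 reads in a sample.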
